A study of Homo sapiens with 9 samples.

Results

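Bradykinin, prostaglandin E2, platelet-activating factor and noradrenaline act on cells through receptors that cross the plasma membrane and couple to G proteins, and the RNA of 8 such receptor genes was measured in T47D breast cancer cells. The genes were BDKRB1 and BDKRB2 (bradykinin receptors), PTGER1, PTGER2, PTGER3 and PTGER4 (prostaglandin E2 receptors), PTAFR (platelet-activating factor receptor) and ADRB1 (beta-1 adrenergic receptor). All probes that carry one of these names were taken, 12 of the 58201 probes on the array. Of these 12 probes, 11 were tested, standing for 7 genes, and the PTGER1 probe was too dim to be tested. T47D is an established human luminal breast cancer cell line. Single-color arrays were made from 3 stable lines of it, with 3 arrays per line and 9 in all. T47D-PA6 cells expressed full-length PTH-AS, a long noncoding RNA that lies downstream of the parathyroid hormone gene. T47D-PA5 cells expressed an incomplete PTH-AS that lacks part of the 5′ end, and T47D-VC1 cells carried the empty vector. All 3 lines went through transfection with the same vector backbone and G418 selection, and a single line with high expression was used per construct. Each group therefore stands for 1 selected line, and an effect of the insert and a property of that line cannot be told apart. Neither the labels nor the methods say that the 3 arrays of a line came from separate cultures, so p-values measure only the spread between these arrays. All receptor genes except PTGER1 also appear among altered genes that the study chose on these same arrays, so their changes are not independent evidence. Array 1 of each line was on the same slide and scanned in an earlier run, apart from arrays 2 and 3. Both later T47D-PA6 arrays were on slide 3, while those of the other lines were split between slides 2 and 3. No T47D-PA6 array was on slide 2. Between arrays 2 and 3 of a line the median absolute log2 difference was 0.09 to 0.11, and between array 1 and the others it was 0.21 to 0.27.

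The bradykinin B2 receptor is present on many cells all the time and couples to Gq, and the B1 receptor, encoded by the neighboring gene, is known as an inducible receptor that responds to kinins lacking the last arginine. Prostaglandin E2 has 4 receptors, of which EP1 (PTGER1) raises calcium, EP2 (PTGER2) and EP4 (PTGER4) raise cyclic AMP through Gs, and EP3 (PTGER3) mostly lowers cyclic AMP through Gi and exists in many splice forms with different tails. The platelet-activating factor receptor couples to Gq and Gi, and the beta-1 adrenergic receptor couples to Gs. Kinins and prostaglandin E2 are known in breast tissue and other epithelia as mediators of inflammation, pain and vessel growth.

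The cells were checked against markers. All 9 markers of luminal breast epithelium carried the scanner software's mark for a signal well above background on all 9 arrays, and their summed signal was 491670 to 530320 in T47D-VC1 cells, 518320 to 530350 in T47D-PA5 cells and 504580 to 523060 in T47D-PA6 cells. Among them PGR, the progesterone receptor, fell in T47D-PA6 over T47D-VC1 cells (log2 difference −1.07, limma adjusted p = 0.00681). KRT19 and KRT18 made up most of each luminal sum, and quantile normalization limits how far the brightest signals can differ between arrays. The luminal sums therefore cannot decide whether the dimmer luminal markers changed between lines. Markers of other cell types were partly present. No array showed KRT5, TP63, COL1A2, DCN, PECAM1 or CD3E well above background. The summed signal of 4 basal markers was 385 to 839 in T47D-VC1 cells, 878 to 939 in T47D-PA5 cells and 986 to 1448 in T47D-PA6 cells, and that of 4 leukocyte markers was 459.7 to 549, 403 to 820 and 567 to 708. CD14, a monocyte surface protein, rose in T47D-PA6 over T47D-VC1 cells (log2 difference 1.80, limma adjusted p = 0.00752). The summed signal of 4 fibroblast markers was 341 to 381, 308 to 353 and 248 to 281, with COL1A1, the one tested, lower in T47D-PA6 over T47D-VC1 cells (log2 difference −0.50, limma adjusted p = 0.0200), and that of 3 endothelial markers was 48.6 to 73.6, 45.9 to 66.0 and 45.3 to 54.2. The part of these markers in the receptor values was not tested.

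The upstream sequences of the bradykinin receptor genes are shown because these neighboring genes on chromosome 14 were both higher in T47D-PA6 cells. They come from RefSeq on GRCh38.p14 and give the 250 bases before each start on the plus strand, chr14:96255960-96256209 for BDKRB1 and chr14:96204589-96204838 for BDKRB2. Capitals mark the longest stretch that both share, 11 bases long, which begins 51 bases before the BDKRB1 start and 46 bases before the BDKRB2 start.
BDKRB1: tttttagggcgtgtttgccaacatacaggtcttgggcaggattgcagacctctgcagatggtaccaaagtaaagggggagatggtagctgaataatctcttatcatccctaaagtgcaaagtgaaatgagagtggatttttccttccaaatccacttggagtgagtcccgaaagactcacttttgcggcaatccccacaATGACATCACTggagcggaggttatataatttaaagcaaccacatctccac
BDKRB2: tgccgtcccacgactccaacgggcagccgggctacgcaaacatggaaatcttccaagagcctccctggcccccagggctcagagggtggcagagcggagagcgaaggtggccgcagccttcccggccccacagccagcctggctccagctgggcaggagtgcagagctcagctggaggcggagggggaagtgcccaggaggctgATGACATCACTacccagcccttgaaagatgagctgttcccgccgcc
The shared stretch occurs in 18 of 35116 upstream sequences of this length (0.0513%), on either strand, those of BDKRB1 and BDKRB2 included. It was searched for after the sequences were read. How often other pairs of upstream sequences share a stretch this long was not computed, so the share does not say how rare such sharing is. GC made up 44.8% of the BDKRB1 sequence, which has 4 CpG, and 66.4% of the BDKRB2 sequence, which has 12 CpG, beside a median of 58.0% over all upstream sequences. The motif TGANNTCA, chosen after these sequences were read, lies inside the shared stretch and was found on either strand in 10.1% of all upstream sequences, which include those with the cyclic AMP response element TGACGTCA. RefSeq sequences matched 7 of the 8 genes, all but PTGER3. The cyclic AMP response element, found on either strand in 1.65% of upstream sequences, and the gamma interferon activation site TTCNNNGAA (6.57%) were in none of the 7 genes' sequences. The AP-1 element TGANTCA (6.57%) was found once before PTAFR and in no other of these genes. The GC box GGGCGG (42.6%) was found 4 times before PTGER1 and PTGER4, 2 times before PTGER2 and once before PTAFR. These are matches of letters only.

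PTGER3 and PTAFR were each measured by several probes, which differed in their results, so the first 30 bases of each probe are shown. The array's annotation describes the PTGER3 probes as transcript variants 4, 9, 5 and 7, and the PTAFR probes as variants 3 and 2, and the probes are named by these variants here. A name does not mean that a probe reads that variant alone, since the annotation lists 4 transcripts each for the PTGER3 variant 4, PTGER3 variant 7 and PTAFR variant 3 probes and 2 for the PTAFR variant 2 probe.
PTGER3 variant 7 probe: gatcttggatccttgggtttacctgctgtt
PTGER3 variant 5 probe: cattatatgtatcgaaacatcgctctgtgc
PTGER3 variant 9 probe: ccatgaccaagtcaggatttcttaatattt
PTGER3 variant 4 probe: cctgtttccatacatgtttttgtactttta
PTAFR variant 2 probe: tgagtcacacacctgtgcctgggcccgtcc
PTAFR variant 3 probe: atacggtcactgaagtggttgtgccattca
No pair of probes of these 8 genes shares a run of 15 bases. Whether a probe also binds other RNA was not tested. On hg19 the PTGER3 probes lie on the minus strand of chromosome 1, at 71477989 to 71478048 (variant 7), 71471573 to 71471632 (variant 5), 71436570 to 71436629 (variant 9) and 71318302 to 71318361 (variant 4). From the most 5′ of them, variant 7, the others lie 6.42, 41.4 and 159.7 kb further downstream. The PTAFR probes lie on the minus strand of chromosome 1, at 28476506 to 28476565 (variant 3) and 28520359 to 28520418 (variant 2). Of the 60 bases of the variant 2 probe, 51 lie before one of the 2 starts that RefSeq gives for PTAFR.

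More receptor probes passed the test in the comparisons with T47D-PA6 cells than between T47D-PA5 and T47D-VC1 cells. Of the 11 tested probes, 7 passed an adjusted p-value of 0.05 in T47D-PA6 over T47D-VC1 cells by limma, where 10.6% of all 26171 tested probes did. BDKRB1, BDKRB2, PTGER2, ADRB1 and the PTAFR variant 3 probe rose (5 probes, where 4.43% of all tested probes did), and PTGER4 and the PTGER3 variant 9 probe fell (2 probes, where 6.12% did). The median log2 difference of the 11 probes was 0.49, beside −0.05 over all tested probes. Between T47D-PA5 and T47D-VC1 cells 2 probes passed, where 1.62% of all tested probes did. The PTGER3 variant 4 probe rose (1 probe, 1.29% of all) and PTGER4 fell (1 probe, 0.332% of all). Their median log2 difference was 0.19, beside −0.03 over all tested probes. In T47D-PA6 over T47D-PA5 cells 7 probes passed, where 9.91% of all did. BDKRB1, BDKRB2, PTGER2 and ADRB1 were higher (4 probes, 3.46% of all), and 3 of the PTGER3 probes were lower (6.45% of all), with a median log2 difference of 0.13 beside −0.01. PTGER2 and the PTAFR variant 3 probe entered the test only through T47D-PA6, where they were high, so these counts and medians are descriptions. The first and the second comparison share the T47D-VC1 arrays, and each of the other pairs of comparisons also shares a line. The arrays of the lines compared did not overlap at 8 of 11 probes in T47D-PA6 against T47D-VC1 (31.3% of all tested probes), 4 of 11 in T47D-PA5 against T47D-VC1 (23.3%) and 8 of 11 in T47D-PA6 against T47D-PA5 (32.9%). By the study's definition of a ratio above 2 or below 0.6, with no test, 6, 2 and 8 of the 11 probes were altered, beside 8.08%, 3.98% and 8.28% of all tested probes. With the unpaired two-sample test that the study's methods name, adjusted over all tested probes, 1, 0 and 4 probes passed, PTGER4 in the first comparison and BDKRB1, BDKRB2, PTGER2 and ADRB1 in the last. With no filter on dim probes 5, 1 and 6 passed by limma, and the calls lost were those of the PTAFR variant 3 and PTGER3 variant 9 probes over T47D-VC1 cells in T47D-PA6, of the PTGER3 variant 4 probe in T47D-PA5 over T47D-VC1, and of the PTGER3 variant 7 probe in T47D-PA6 over T47D-PA5 cells.

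**Figure D1:**
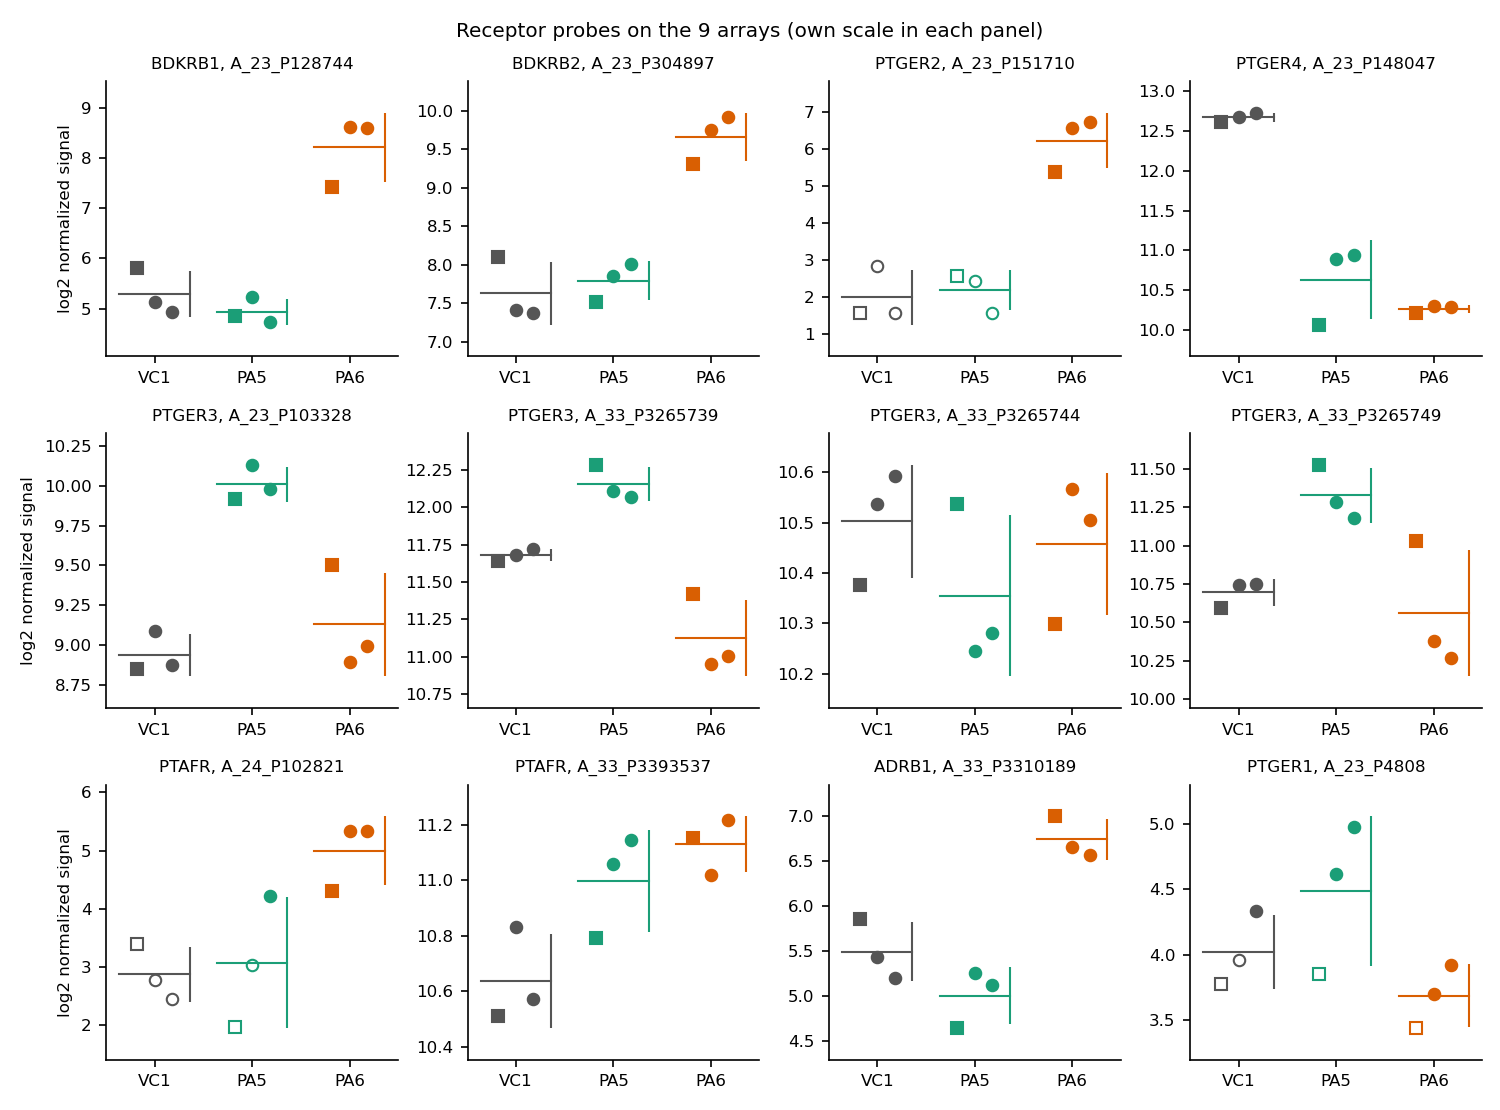
Normalized signal (log scale, arbitrary intensity units) of each of the 12 receptor probes on each of the 9 arrays, by line. Squares are arrays of the earlier scan run, circles of the later one, open symbols are arrays on which the probe was not well above background, and the line and bar give the mean and SD of log2 values. T47D-PA6 arrays lie above all others for BDKRB1, BDKRB2, PTGER2 and ADRB1, and T47D-VC1 arrays lie above all others for PTGER4.

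**Figure D2:**
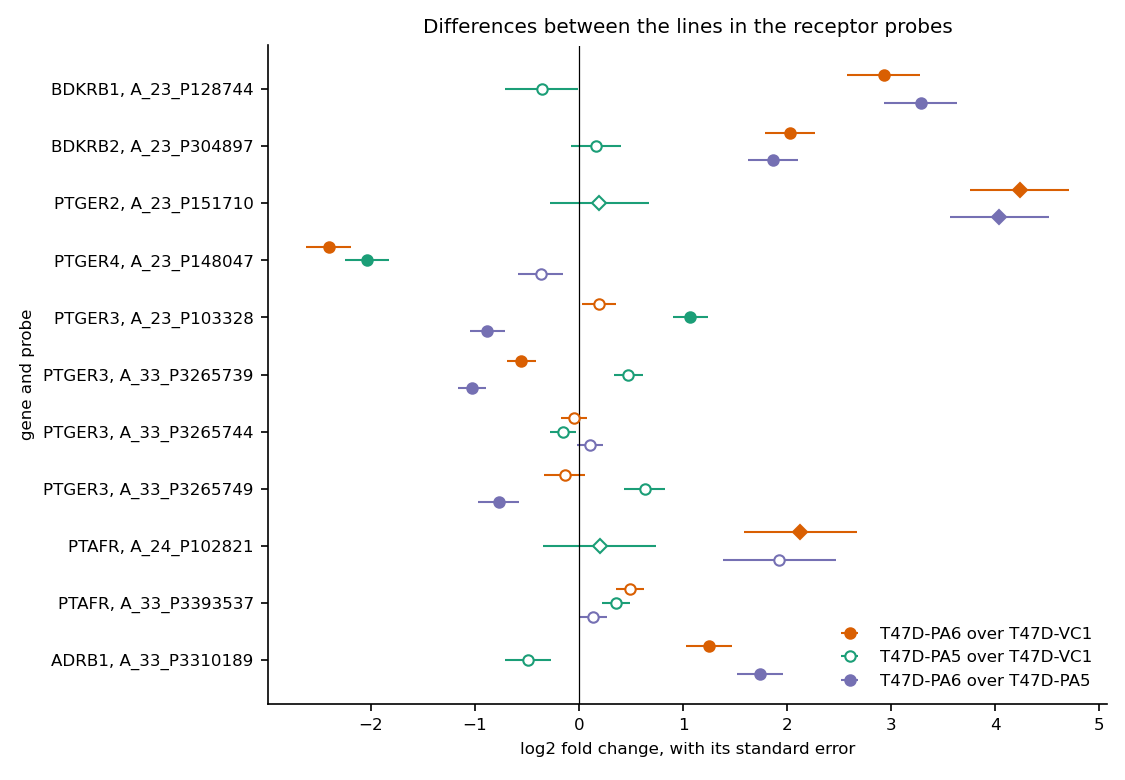
Log2 difference between lines for each tested receptor probe, with its standard error from limma, in the 3 comparisons. Filled symbols have an adjusted p-value under 0.05, and diamonds mark differences in which no array of 1 of the lines was well above background, so that the size shown is the fitted one and not a fold. 7, 2 and 7 probes are filled in T47D-PA6 over T47D-VC1, T47D-PA5 over T47D-VC1 and T47D-PA6 over T47D-PA5.

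T47D-PA6 cells had more RNA of both bradykinin receptor genes than the other lines. The BDKRB1 signal was 55.9, 35.1 and 30.5 on the T47D-VC1 arrays, 28.9, 37.3 and 26.5 on the T47D-PA5 arrays and 171.9, 391 and 391 on the T47D-PA6 arrays. All 3 T47D-PA6 arrays were above the other 6, which overlapped, and the lowest of them was the array of the earlier scan run. BDKRB1 was 7.61-fold higher in T47D-PA6 over T47D-VC1 cells (log2 difference 2.93 ± 0.35, SE, n = 3 arrays per line, limma adjusted p = 0.00233). It was 9.73-fold higher than in T47D-PA5 cells (log2 difference 3.28, limma adjusted p = 0.00233). T47D-PA5 and T47D-VC1 cells were not told apart (log2 difference −0.36 ± 0.35, limma adjusted p = 0.69). Within the earlier scan run, with 1 array per line, the log2 difference of T47D-PA6 over T47D-VC1 was 1.62, and within the later run, with 2 per line, it was 3.58. With normexp background correction the log2 difference was 1.82 over T47D-VC1 and 1.96 over T47D-PA5 cells, and both still passed the test.

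BDKRB2 was also highest in T47D-PA6 cells. Its signal was 275, 169.8 and 166 on the T47D-VC1 arrays, 183, 232 and 257 on the T47D-PA5 arrays and 633, 862 and 966 on the T47D-PA6 arrays. The T47D-PA6 arrays were again above all others, and the T47D-VC1 and T47D-PA5 arrays overlapped. BDKRB2 was 4.08-fold higher in T47D-PA6 over T47D-VC1 cells (log2 difference 2.03 ± 0.24, SE, n = 3, limma adjusted p = 0.00228) and 3.64-fold higher than in T47D-PA5 cells (log2 difference 1.86, limma adjusted p = 0.00425). The T47D-PA5 over T47D-VC1 difference was 0.16 on the log2 scale (limma adjusted p = 0.81). Within scan runs the T47D-PA6 over T47D-VC1 log2 difference was 1.20 in the earlier and 2.44 in the later run. The T47D-PA5 over T47D-VC1 difference was −0.59 in the earlier and 0.54 in the later run, and with the later run alone it passed the test (limma adjusted p = 0.0204). With that run alone 5208 of all 26171 tested probes passed in this comparison.

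The bradykinin receptor probes lie 20.7 kb apart on chromosome 14 of hg19, at 96710341 to 96710400 for BDKRB2 and 96731011 to 96731070 for BDKRB1, both on the plus strand. The nearest tested gene above BDKRB1 was ATG2B, an autophagy gene whose probe lies 16.7 kb away, with a log2 difference of −0.05 in T47D-PA6 over T47D-VC1 cells (limma adjusted p = 0.88). The nearest below BDKRB2 was C14orf132, whose probe lies 154 kb away, with a log2 difference of 0.46 (limma adjusted p = 0.55). Neither passed the test in any of the 3 comparisons.

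**Figure D3:**
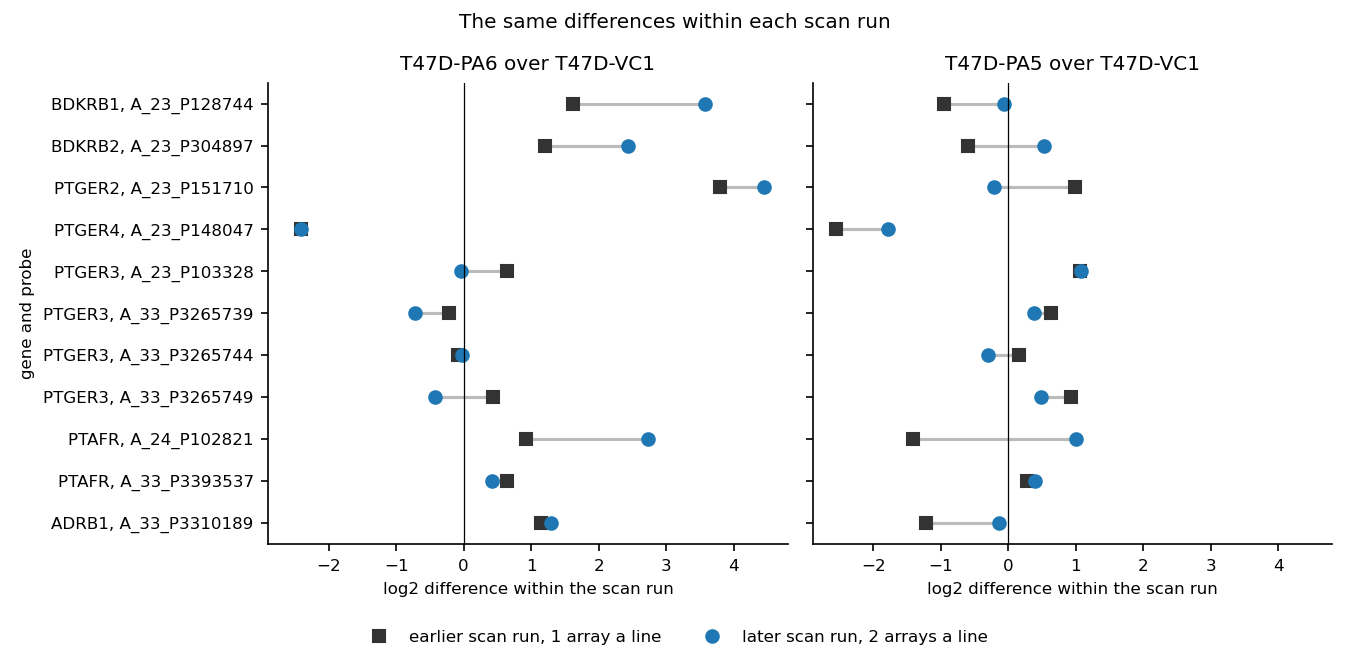
Log2 difference of each tested receptor probe within the earlier scan run (1 array per line) and within the later run (2 arrays per line), for T47D-PA6 over T47D-VC1 and T47D-PA5 over T47D-VC1. PTGER4 lies near −2.4 in both runs in T47D-PA6 over T47D-VC1, and BDKRB1 lies at 1.62 in the earlier and 3.58 in the later run.

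The 2 prostaglandin E2 receptors that couple to Gs moved in opposite directions in T47D-PA6 cells. For PTGER2, which encodes EP2, the signal was 2.98, 7.23 and 2.96 on the T47D-VC1 arrays, 5.93, 5.44 and 2.97 on the T47D-PA5 arrays and 41.4, 95.9 and 106.8 on the T47D-PA6 arrays. All 3 T47D-PA6 arrays and none of the other 6 had it well above background. Its difference is therefore a bound, the mean T47D-PA6 log2 signal against the lowest signal well above background on the other line's arrays. That lowest signal was 9.59 to 15.2 over the 9 arrays. PTGER2 RNA in T47D-PA6 cells was at least 6.03-fold higher than in T47D-VC1 cells (limma adjusted p = 0.00179) and at least 5.79-fold higher than in T47D-PA5 cells (limma adjusted p = 0.00302). The probe entered the test only through T47D-PA6, the line where it was high, and with no filter on dim probes the adjusted p-values by limma were 0.0116 and 0.0146. With normexp background correction, which adds an offset of 50 to every signal, the fitted log2 differences were only 1.095 and 1.08, and both still passed the test. The probe lies at 52794430 to 52794489 on the plus strand of chromosome 14, and the nearest tested genes, NID2 at 313 kb and TXNDC16 at 103 kb, did not pass the test in any comparison.

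PTGER4, which encodes EP4, was lower in both PTH-AS lines. Its signal was 6253, 6543 and 6759 on the T47D-VC1 arrays, 1072, 1900.2 and 1964 on the T47D-PA5 arrays and 1183, 1259 and 1249 on the T47D-PA6 arrays. Every T47D-VC1 array was above every array of the other lines, and the T47D-PA5 and T47D-PA6 arrays overlapped. The log2 difference was −2.41 ± 0.21 (SE, n = 3) in T47D-PA6 over T47D-VC1 cells, a ratio of 0.189 (limma adjusted p = 0.000629). For T47D-PA5 over T47D-VC1 cells it was −2.04 ± 0.21, a ratio of 0.244 (limma adjusted p = 0.00336). Within scan runs these differences were −2.40 and −2.41 for T47D-PA6 and −2.54 and −1.78 for T47D-PA5. The T47D-PA6 over T47D-PA5 difference was −0.37 (limma adjusted p = 0.33), with 0.14 in the earlier and −0.62 in the later scan run. It passed the test in the later run alone (limma adjusted p = 0.00218), where 9033 of all 26171 tested probes did. It also passed without T47D-PA5 replicate 1 (log2 difference −0.65, limma adjusted p = 0.0115). The probe lies at 40693563 to 40693622 on the plus strand of chromosome 5. The nearest tested gene above it, TTC33 at 18.7 kb, had a log2 difference of −0.71 in T47D-PA6 over T47D-VC1 cells (limma adjusted p = 0.10), and DAB2, 1322 kb below, had −0.31 (limma adjusted p = 0.66). Neither passed in the other comparisons.

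The 4 probes of PTGER3, which encodes EP3, did not move together. The variant 4 probe, the furthest downstream, read 462, 544 and 469 on the T47D-VC1 arrays, 967, 1122 and 1009.6 on the T47D-PA5 arrays and 725, 476 and 511 on the T47D-PA6 arrays. All 3 T47D-PA5 arrays were above the other 6, which overlapped. This probe was 2.10-fold higher in T47D-PA5 than in T47D-VC1 cells (log2 difference 1.07 ± 0.17, SE, n = 3, limma adjusted p = 0.0203), with 1.06 in the earlier and 1.07 in the later scan run. It was lower in T47D-PA6 than in T47D-PA5 cells (log2 difference −0.88, limma adjusted p = 0.0147), and 0.19 separated T47D-PA6 from T47D-VC1 cells (limma adjusted p = 0.51). The T47D-PA5 over T47D-VC1 call was lost on leaving out replicate 3 of T47D-VC1, or replicate 2 or 3 of T47D-PA5 (limma adjusted p from 0.0878 to 0.0902), and the T47D-PA6 over T47D-PA5 call without replicate 2 or 3 of either line (limma adjusted p from 0.0538 to 0.0645).

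The PTGER3 variant 9 probe read 3193, 3276 and 3382 on the T47D-VC1 arrays, 4987, 4424 and 4285 on the T47D-PA5 arrays and 2741, 1986 and 2053 on the T47D-PA6 arrays. The lines did not overlap, with T47D-PA5 highest and T47D-PA6 lowest. The log2 difference was −1.03 in T47D-PA6 over T47D-PA5 cells (limma adjusted p = 0.00494), with −0.86 and −1.11 in the scan runs. In T47D-PA6 over T47D-VC1 cells it was −0.55 ± 0.14 (SE, n = 3, limma adjusted p = 0.0394), with −0.22 in the earlier and −0.72 in the later run. That call was lost without any 1 of the T47D-VC1 arrays and without replicate 2 or 3 of T47D-PA5 or of T47D-PA6 (limma adjusted p from 0.0553 to 0.135), and in a fit to these lines alone (limma adjusted p = 0.0834). The T47D-PA5 over T47D-VC1 log2 difference was 0.47 (limma adjusted p = 0.15), and it passed without T47D-PA6 replicate 1 (limma adjusted p = 0.0421) and in the later scan run alone (log2 difference 0.39, limma adjusted p = 0.0177). With that run alone 5208 of all 26171 tested probes passed in this comparison.

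The PTGER3 variant 7 probe, the most 5′, read 1548, 1713 and 1726 on the T47D-VC1 arrays, 2954, 2489 and 2319 on the T47D-PA5 arrays and 2095, 1331 and 1235 on the T47D-PA6 arrays. T47D-PA5 arrays were above all others, and the T47D-PA6 array of the earlier scan run was above the T47D-VC1 arrays while the later ones were below them. The log2 difference was −0.77 ± 0.20 in T47D-PA6 over T47D-PA5 cells (SE, n = 3, limma adjusted p = 0.0448), 0.63 in T47D-PA5 over T47D-VC1 cells (limma adjusted p = 0.17) and −0.14 in T47D-PA6 over T47D-VC1 cells (limma adjusted p = 0.71). The first of these calls was lost without any 1 of 7 arrays, all but T47D-VC1 replicate 1 and T47D-PA6 replicate 1 (limma adjusted p from 0.0696 to 0.155), and with slide as a block (limma adjusted p = 0.0615). The T47D-PA5 over T47D-VC1 difference passed without T47D-PA6 replicate 1 (limma adjusted p = 0.0343). With the later scan run alone the differences over T47D-VC1 cells were 0.48 in T47D-PA5 and −0.42 in T47D-PA6, and both passed the test (limma adjusted p = 0.0159 and 0.0113). Of all 26171 tested probes, 5208 and 9388 passed in these comparisons with that run alone.

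The PTGER3 variant 5 probe, which lies between these, read 1330, 1487 and 1545 on the T47D-VC1 arrays, 1487, 1213 and 1245 on the T47D-PA5 arrays and 1260, 1517 and 1454 on the T47D-PA6 arrays. The 3 lines overlapped, and the log2 differences were −0.05, −0.15 and 0.10 in the 3 comparisons (limma adjusted p = 0.86, 0.64 and 0.67). With the later scan run alone the T47D-PA5 over T47D-VC1 difference was −0.30 and the T47D-PA6 over T47D-PA5 difference 0.27, and both passed the test (limma adjusted p = 0.0325 and 0.0259). Of all 26171 tested probes, 5208 and 9033 passed in these comparisons with that run alone.

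Because the PTGER3 probes differed, the log2 ratio of 1 probe to another on the same array was compared between lines, in pairs chosen after the values were seen. The variant 4 to variant 5 ratio differed on the log2 scale by 1.22 between T47D-PA5 and T47D-VC1 cells and by −0.98 between T47D-PA6 and T47D-PA5 cells. The variant 9 to variant 5 ratio differed by 0.62 between T47D-PA5 and T47D-VC1 cells, by −0.51 between T47D-PA6 and T47D-VC1 cells and by −1.13 between T47D-PA6 and T47D-PA5 cells. In none of these 5 comparisons did the arrays of the lines compared overlap. Between T47D-PA6 and T47D-VC1 cells the variant 4 to variant 5 ratio did overlap. How often ratios of other probes on the array do not overlap was not computed, so these are descriptions. The variant 4 to variant 9 ratio was higher than in T47D-VC1 cells by 0.75 in T47D-PA6 and by 0.60 in T47D-PA5 cells. Between T47D-PA6 and T47D-PA5 cells the variant 4 to variant 9 ratio overlapped. Each difference given here had p = 0.1 in an exact two-sided permutation test, the smallest p that 3 arrays against 3 can give. After Benjamini-Hochberg adjustment over the 15 ratios computed it was 0.136. With 3 arrays per line no ratio could have passed, so this test cannot decide whether the ratios differ. The nearest tested genes on each side of PTGER3, CTH and ZRANB2, did not pass the test in any comparison.

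**Figure D4:**
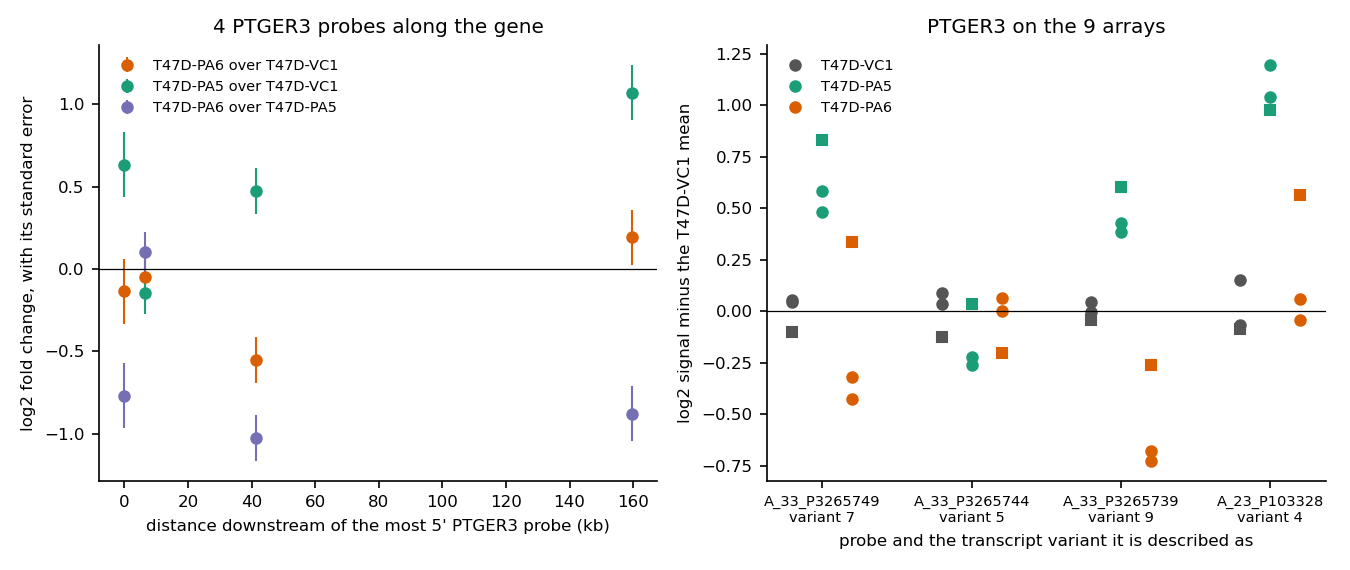
Left, log2 difference between lines (limma, with standard error) of the 4 PTGER3 probes against their distance downstream of the most 5′ probe in kb. Right, log2 signal on each array minus the T47D-VC1 mean of that probe. The probe at 6.42 kb stays within 0.15 of 0 in all 3 comparisons, and the other 3 are highest in T47D-PA5 cells.

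PTGER1, which encodes EP1, was near background in all lines. Its signal was 13.7, 15.5 and 20.2 on the T47D-VC1 arrays, 14.5, 24.6 and 31.6 on the T47D-PA5 arrays and 10.8, 13.0 and 15.2 on the T47D-PA6 arrays. Only 5 of 9 arrays had it well above background, 1 of T47D-VC1, 2 of T47D-PA5 and 2 of T47D-PA6, so it was not tested, and the lines overlapped. Its probe lies on the minus strand of chromosome 19 at 14584205 to 14584264.

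PTAFR gave a dim and a bright probe. The dim variant 3 probe read 10.5, 6.84 and 5.46 on the T47D-VC1 arrays, 3.92, 8.15 and 18.6 on the T47D-PA5 arrays and 19.8, 40.3 and 40.6 on the T47D-PA6 arrays. All T47D-PA6 arrays, 1 T47D-PA5 array and no T47D-VC1 array had it well above background, and all T47D-PA6 arrays were above the other 6. In T47D-PA6 cells it was at least 2.56-fold higher than in T47D-VC1 cells (limma adjusted p = 0.0419 for the fitted difference). The probe entered the test only through T47D-PA6, the line where it was high, and with no filter on dim probes it did not pass (limma adjusted p = 0.129). That call was also lost on leaving out replicate 2 or 3 of T47D-VC1, replicate 2 of T47D-PA5, or replicate 2 or 3 of T47D-PA6 (limma adjusted p from 0.0673 to 0.138), and with slide as a block (limma adjusted p = 0.0732). With normexp background correction the fitted log2 difference was 0.51 and passed (limma adjusted p = 0.0174). Against T47D-PA5 cells the log2 difference was 1.93 (limma adjusted p = 0.0598), and it passed with scan run as a block (limma adjusted p = 0.0404) and without T47D-PA6 replicate 1 (limma adjusted p = 0.0396). Without T47D-PA5 replicate 3, the one array of that line with the probe well above background, the fitted difference is measured against background only, and it also passed (limma adjusted p = 0.0303).

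The bright PTAFR variant 2 probe read 1460.2, 1821 and 1522 on the T47D-VC1 arrays, 1773, 2129.8 and 2264 on the T47D-PA5 arrays and 2276, 2075 and 2379 on the T47D-PA6 arrays. T47D-PA6 arrays were above the T47D-VC1 arrays and overlapped the T47D-PA5 arrays. The log2 difference was 0.49 ± 0.13 in T47D-PA6 over T47D-VC1 cells (SE, n = 3, limma adjusted p = 0.0516), which passed with scan run as a block (limma adjusted p = 0.0257) or slide as a block (limma adjusted p = 0.0450), and without T47D-PA5 replicate 1 (limma adjusted p = 0.0373). It was 0.36 in T47D-PA5 over T47D-VC1 cells (limma adjusted p = 0.24) and 0.13 in T47D-PA6 over T47D-PA5 cells (limma adjusted p = 0.60). The nearest tested genes on each side of PTAFR, EYA3 and DNAJC8, did not pass the test in any comparison.

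T47D-PA6 cells also had the most ADRB1 RNA. Its signal was 57.9, 43.1 and 36.7 on the T47D-VC1 arrays, 25.0, 38.1 and 34.7 on the T47D-PA5 arrays and 128, 101 and 95.04 on the T47D-PA6 arrays. The T47D-PA6 arrays were above all others, and the other lines overlapped. ADRB1 was 2.38-fold higher in T47D-PA6 over T47D-VC1 cells (log2 difference 1.25 ± 0.22, SE, n = 3, limma adjusted p = 0.0109) and 3.34-fold higher than in T47D-PA5 cells (log2 difference 1.74, limma adjusted p = 0.00387). With normexp background correction the second difference was 0.90 on the log2 scale and still passed. Between T47D-PA5 and T47D-VC1 cells it was −0.49 (limma adjusted p = 0.33). Within scan runs the T47D-PA6 over T47D-VC1 difference was 1.14 and 1.30. The probe lies on the plus strand of chromosome 10 at 115806608 to 115806667, and the nearest tested genes, NHLRC2 and CCDC186, did not pass in any comparison.

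Of the related receptors, only TBXA2R, ADRA1A, ADRA2A and ADRA2C were bright enough to be tested. Whether the others changed was not tested, and so few tested genes give no result about the related receptors as a set. Of the other prostanoid receptors, PTGDR, PTGFR and PTGIR (for prostaglandin D2, prostaglandin F2-alpha and prostacyclin) were well above background on none of the 9 arrays, and PTGDR2 was so on 1 array each of T47D-PA5 and T47D-PA6. TBXA2R, the thromboxane receptor, was well above background on all 9 arrays and passed the test in no comparison. Of the other adrenergic receptors, ADRA1A, ADRA2A and ADRA2C also reached this mark on all 9 arrays, and none of them passed the test in any comparison. ADRB3, the beta-3 receptor, was well above background on 1, 2 and 1 arrays of T47D-VC1, T47D-PA5 and T47D-PA6, ADRA1B on 2 T47D-PA6 arrays, ADRA2B on 1 T47D-PA6 array and ADRA1D on none.

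Genes for the ligands and the signaling of these receptors were counted in lists of 106 genes, of which 104 had probes and 76 were tested, with 1 probe per gene. In T47D-PA6 over T47D-VC1 cells 8 of the 76 rose and 5 fell, where 4.74% and 5.38% of all 20106 tested genes did (10.1% in either direction). T47D-PA5 over T47D-VC1 cells had 1 that rose, PLA2G4C, and 0 that fell (1.35% and 0.298% of all genes, 1.65% in either direction), and in T47D-PA6 over T47D-PA5 cells 4 were higher and 5 lower (3.62% and 6.03%, 9.65% in either direction). Their median log2 differences were 0.02, −0.01 and −0.005, beside −0.03, −0.03 and −0.0009 over all genes.

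In the bradykinin system, 3 of 6 tested genes passed in T47D-PA6 over T47D-VC1 cells, where 10.1% of all genes did, and none in the other comparisons. Of these 2 rose and 1 fell, and with so few genes tested the count is no result about the list. KLK1, tissue kallikrein, which releases kinins from kininogen, rose from a mean signal of 42.6 to 139 (log2 difference 1.70, limma adjusted p = 0.0162). Its mean in T47D-PA5 cells was 117 (log2 difference over T47D-VC1 1.45, limma adjusted p = 0.0749). SERPING1, the C1 inhibitor that blocks plasma kallikrein, rose from 13.5 to 41.5 (log2 difference 1.62, limma adjusted p = 0.00884), and was well above background on 2 of 3 T47D-VC1 arrays. CPD, a carboxypeptidase, fell (log2 difference −0.48, limma adjusted p = 0.0290). No array showed KNG1, which encodes kininogen, or KLKB1, plasma kallikrein, well above background.

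Among 11 tested genes of prostanoid synthesis, export and breakdown, 1 passed in each comparison with T47D-VC1 cells, where 10.1% (T47D-PA6) and 1.65% (T47D-PA5) of all genes did. PTGIS, prostacyclin synthase, was well above background on all T47D-PA6 arrays and on no other array. Its RNA in T47D-PA6 cells was at least 6.69-fold higher than in T47D-VC1 cells (limma adjusted p = 0.00600 for the fitted difference) and at least 6.42-fold higher than in T47D-PA5 cells (limma adjusted p = 0.00888 for the fitted difference). It too entered the test only through T47D-PA6, the line where it was high. PLA2G4C, a phospholipase A2, had mean signals of 342 in T47D-VC1 cells, 849 in T47D-PA5 cells and 463 in T47D-PA6 cells, and was higher in T47D-PA5 cells than in both other lines (log2 difference over T47D-VC1 1.31, limma adjusted p = 0.00310, and of T47D-PA6 over T47D-PA5 −0.87, limma adjusted p = 0.00708). No array showed PTGS2, the inducible cyclooxygenase, or HPGD, which breaks down prostaglandin E2, well above background. Among 8 tested genes of platelet-activating factor synthesis and breakdown 1 passed, LPCAT1, an acyltransferase, which rose in T47D-PA6 over T47D-VC1 cells (log2 difference 0.88, limma adjusted p = 0.0470). The LPCAT1 difference of T47D-PA5 over T47D-VC1 cells was nearly the same size but did not pass. T47D-PA6 and T47D-PA5 cells had nearly the same LPCAT1 signal, so this rise does not set T47D-PA6 apart from T47D-PA5.

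Downstream of the receptors, 2 of 11 tested G protein alpha subunit genes passed in T47D-PA6 over T47D-VC1 cells, in opposite directions. Over all genes 10.1% passed there, and with so few genes tested in this and the following lists the counts are no result about a list. GNAI1, an inhibitory subunit, rose from a mean signal of 23.9 to 86.9 (log2 difference 1.86, limma adjusted p = 0.00163) and stood at 25.0 in T47D-PA5 cells. GNAQ, the Gq subunit, fell (log2 difference −0.79, limma adjusted p = 0.0115). Both also passed in T47D-PA6 over T47D-PA5 cells, at 1.80 and −0.96. Of 7 receptor kinases and arrestins, which switch off active receptors, 2 rose in T47D-PA6 over T47D-VC1 cells, GRK3 (log2 difference 1.52, limma adjusted p = 0.00442) and GRK5 (1.09, limma adjusted p = 0.0375). PLCB1, a phospholipase C that Gq activates, fell (log2 difference −0.60, limma adjusted p = 0.0332) as 1 of 4 tested. PRKAR2A, a regulatory subunit of protein kinase A, fell (log2 difference −0.64, limma adjusted p = 0.0305) as 1 of 13 tested kinase subunits and phosphodiesterases. The PRKAR2A difference of T47D-PA5 over T47D-VC1 cells was nearly as large but did not pass. T47D-PA6 and T47D-PA5 cells had similar PRKAR2A signals, so this fall does not set T47D-PA6 apart from T47D-PA5. In T47D-PA6 over T47D-PA5 cells PRKACB and PRKAR1A were the genes of the kinase subunit and phosphodiesterase list that passed (log2 differences −0.74 and −0.41, limma adjusted p = 0.0484 and 0.0464). Of 12 tested cyclic AMP-responsive genes, SIK1 rose in T47D-PA6 over T47D-VC1 cells (log2 difference 0.42, limma adjusted p = 0.0468). NR4A3 fell there, at least 1.76-fold lower (limma adjusted p = 0.0279 for the fitted difference), and the other 10 did not pass. No T47D-PA6 array showed NR4A3 well above background, and it entered the test only through T47D-VC1, where it was higher.

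**Figure D5:**
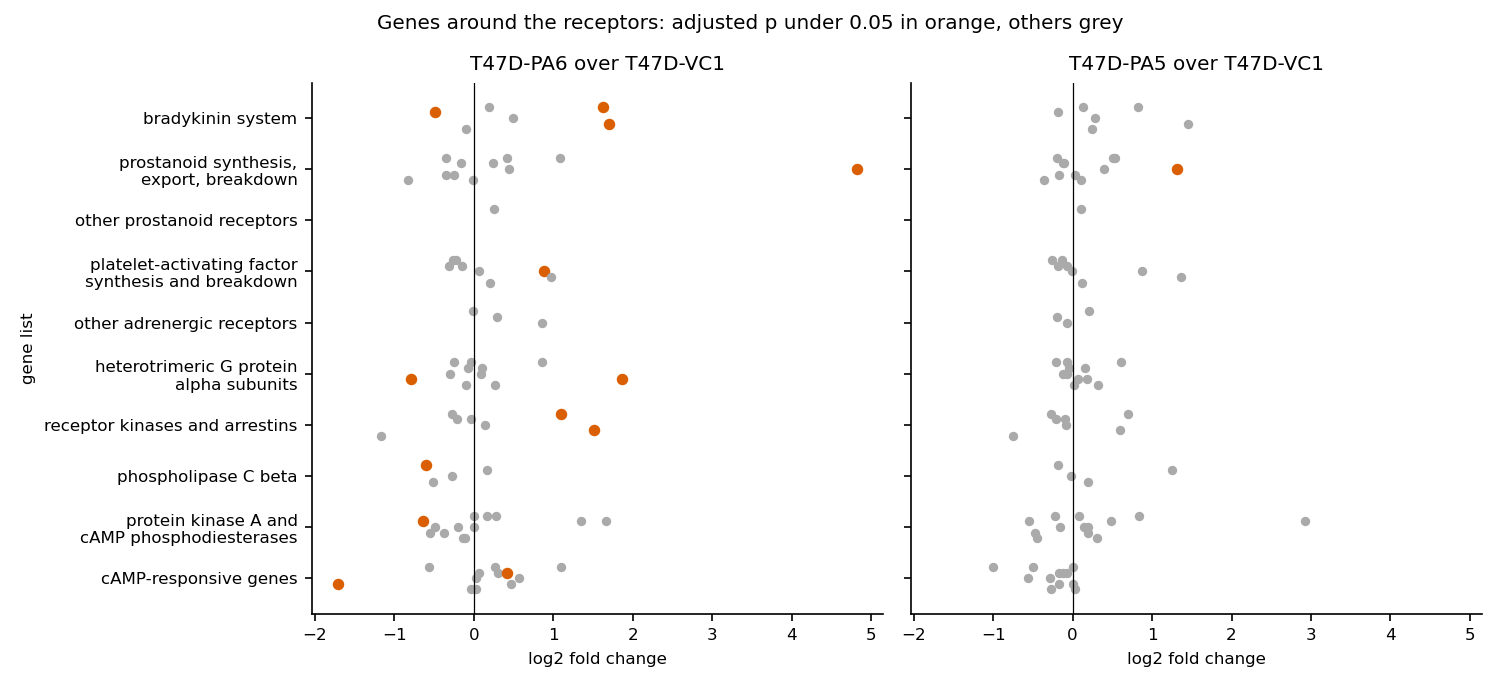
Log2 difference of the 76 tested genes of the ligand and signaling lists, by list, in T47D-PA6 over T47D-VC1 and in T47D-PA5 over T47D-VC1. Orange points passed an adjusted p-value of 0.05 by limma, 13 in T47D-PA6 over T47D-VC1 and 1 in T47D-PA5 over T47D-VC1.

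For each receptor probe that passed in any comparison, the genes with the most similar pattern over the 9 arrays were found by the root mean square difference of log2 signals, each centered on its own mean. BDKRB1 was nearest to WFDC2, ADCY1 and IGFBP7 (0.32, 0.34 and 0.38 on the log2 scale, beside a spread of 1.62 for BDKRB1 itself, SD over the 9 arrays). BDKRB2 was nearest to RIGI, PGM2L1 and ASPRV1 (0.20, 0.27 and 0.29). PTGER2 was nearest to ARHGAP22, CPVL and ADCY1 (0.49, 0.54 and 0.56), and ADRB1 to SMPD3, EFNB3 and SNORD116-6 (0.17, 0.23 and 0.24). The PTAFR variant 3 probe was nearest to PTPRH, CARINH and BDKRB2 (0.39, 0.42 and 0.45). PTGER4 had no close match. Its nearest genes, LRP4, SATB1 and FAM3B, differed from it by 0.58, 0.62 and 0.63, beside its own SD of 1.15. The 3 PTGER3 probes had different nearest genes, SEPTIN3, PCDHA1 and LAD1 for variant 4 (0.13, 0.15 and 0.16), SLC39A1, S100A10 and GNPAT for variant 9 (0.05, 0.06 and 0.07), and COL5A2, PLXND1 and IGSF9 for variant 7 (0.07, 0.09 and 0.11). For PTGER2 and the PTAFR variant 3 probe most arrays were not well above background, so these distances and their order rest in large part on background values. The likenesses describe the 9 arrays, which the genes share, and were not tested.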

How the data were processed

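The authors deposited spot intensities of every array from the Feature Extraction software (version 10.7.1.1 in the file headers, 9.5.1.1 in the submitters' processing notes), background-subtracted and not normalized between arrays, with the flags that mark spots well above background. Their table of quantile-normalized intensities was an alternative. Of 62976 spots, 60901 were not controls and stood for 58201 probes. Outlier spots (46 to 117 per array) were left out, spots of a probe were averaged as log2 intensities, and the deposited intensities were quantile-normalized between arrays, as the study's methods state. No spot was saturated (0 on each array), and 44.0% to 48.0% of probes were well above background. A probe entered the test when all 3 arrays of some line had it well above background, which gave 26171 probes. The lines were compared with limma 3.58.1 (lmFit and eBayes) in R 4.3.3 in 1 fit over 9 arrays, with 6 residual degrees of freedom and Benjamini-Hochberg adjustment over all tested probes.

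Where none of a line's arrays had the probe well above background, the fold is a bound. It was taken against the mean over arrays of whichever was higher, the probe's signal or the lowest signal with that flag. The limma p-value beside a bound is that of the fitted difference, and the bound itself was not tested. In the lists, the brightest tested probe stood for its gene. All member probes were named, as were up to 3 genes per list with the largest difference in T47D-PA6 over T47D-VC1 cells among those that passed there, the list genes given by detection, the 3 genes most like each called member and the nearest tested gene on each side. PLA2G4C, PRKACB, PRKAR1A and the genes named as not well above background outside the receptor lists (KNG1, KLKB1, PTGS2 and HPGD) were named after their values were seen. The members and lists were chosen with earlier results of these data known. The alternatives tried were 75th percentile shifts, normexp with an offset of 50, the authors' table, no filter and a stricter one on dim probes, slide, scan run and replicate number as blocks, each array left out, the compared lines alone, an intensity trend, the methods' unpaired test, 1 probe per gene, the later scan run alone and the study's ratio definition. The fit was tested on simulated data. Upstream sequences came from RefSeq tables on GRCh38.p14, and probe positions from the files, on hg19. Figures were drawn with matplotlib 3.10.9. Results for some of the list genes are not reported here.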

Additional observations from a re-analysis of the deposited data

How the results depend on the processing

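The 16 receptor calls kept their direction under every alternative that could be computed, 316 of these values kept the call and 45 lost it. PTGER4 in T47D-PA6 over T47D-VC1 cells kept its call under all 23 alternatives, and BDKRB1, BDKRB2, PTGER2 and ADRB1 kept theirs in T47D-PA6 over T47D-PA5 cells. With the methods' unpaired test, 1 receptor probe passed in T47D-PA6 over T47D-VC1, 0 in T47D-PA5 over T47D-VC1 and 4 in T47D-PA6 over T47D-PA5 cells, in place of 7, 2 and 7. In T47D-PA5 over T47D-VC1 cells 1 passed with no filter on dim probes and 1 with 1 probe per gene. In the later scan run alone 6 passed in that comparison, where 5208 of all 26171 tested probes did. Leaving out 1 array at a time gave 5 to 8, 1 to 4 and 5 to 8 receptor probes in the 3 comparisons. The count of 1 came without T47D-VC1 replicate 3, T47D-PA5 replicate 2 or T47D-PA5 replicate 3, and that of 4 without T47D-PA6 replicate 1. In the ligand and signaling lists, scan run as a block gave 23, 5 and 16 genes in place of 13, 1 and 9, and slide as a block gave 3 in T47D-PA5 over T47D-VC1 cells. Same-numbered arrays deviated together weakly (correlations 0.08 to 0.33, and 4 of 9 arrays were closest to an array of their own number), so the numbers were not taken to pair the arrays. With the replicate block 7, 2 and 7 receptor probes passed, and 2 list genes in place of 1 in T47D-PA5 over T47D-VC1 cells. Values that changed sign were all of differences that had not passed. In T47D-PA6 over T47D-VC1 cells these were the PTGER3 variant 4 probe in the later run alone (−0.036), variant 5 without T47D-PA6 replicate 1 (0.034, the other arrays left out giving down to −0.11) and variant 7 without T47D-PA6 replicate 3 (0.0085). In T47D-PA5 over T47D-VC1 cells they were PTGER2 without T47D-VC1 replicate 1 (−0.017), without T47D-VC1 replicate 3 (−0.021, with up to 0.62 without other arrays) and in the later run alone (−0.20), and the PTAFR variant 3 probe without T47D-VC1 replicate 3 (−0.01) and without T47D-PA5 replicate 3 (−0.37, with up to 0.75 without other arrays). The causes were not tested. Over all probes, 2762, 424 and 2593 passed in the 3 comparisons, beside 644, 38 and 966 with the methods' test, 5096, 1235 and 4636 with scan run as a block, and 9388, 5208 and 9033 in the later run alone. With the 75th percentile shift over probes detected on all arrays, 55.9% of the probes that passed in T47D-PA6 over T47D-VC1 cells were higher, beside 42.0%. Signals near background limit PTGER1, PTGER2 and the PTAFR variant 3 probe.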
